A study of Mus musculus with 4 samples.

Results

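The tubulin tyrosine ligase-like (TTLL) enzymes described here were the products of 10 mouse genes, 8 glutamylases (Ttll1, Ttll4, Ttll5, Ttll6, Ttll7, Ttll9, Ttll11 and Ttll13) and 2 glycylases (Ttll3 and Ttll10), out of 21938 annotated protein-coding genes. The rule that chose them used names and functions and no peak value, although earlier results of these data were known when it was made. The data were RFX2 peaks from ChIP-seq, a method that recovers the DNA to which a protein is attached by means of an antibody and then sequences it. Chromatin came from testes of wild type mice of a mixed C57BL/6, 129/Sv and FVB/N background, 2 immunoprecipitated samples and 2 inputs, with an RFX2 antibody from Santa Cruz Biotechnology. The labels give an age of postnatal day 29 to 30, whereas the study's text describes a germ cell preparation from younger animals. No RFX2-deficient chromatin was analysed here, so binding was judged against input alone. The preparation held germ cells of several stages, and the lists cannot tell which of them carried a peak.

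The values compared were the peaks of replicate 1 (39825 peaks), of replicate 2 (21274 peaks) and of a combined list (2726 peaks). The caller's score lay on a −log10 scale in each, with a median of 4.47 in replicate 1, 5.06 in replicate 2 and 82.1 in the combined list, whose lowest peak stood at 43.2. Depth behind the lists is unknown, and scores grow with depth, so ranks within a list are given beside them. The combined list shares reads with both replicates and does not replicate them independently. A promoter was taken as the stretch from 1000 bp upstream to 500 bp downstream of any annotated transcription start site (TSS) in GENCODE mouse release 21, and a gene was counted as bound when a peak overlapped it by at least 1 bp.

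Enzymes of this family add chains of amino acids to the C-terminal tails of tubulin. Glutamylases add glutamate, glycylases add glycine, and both marks are abundant on the microtubules of axonemes, the cores of cilia and sperm flagella. Some members attach the first residue to the tail and others lengthen the chain. RFX2 belongs to the Regulatory Factor X family, which binds an inverted repeat named the X-box and is known for its control of genes of cilia.

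The X-box was read from the peaks themselves. Among windows reaching 100 bp to each side of the summit of 2722 combined peaks, leaving out the 4 peaks at member promoters, the commonest self-complementary 14-base word was GTTGCCATGGCAAC, present in 163 windows (5.99%). The sequences below carry the best match to this palindrome near the strongest peak of each gene listed, in capitals, on the strand of the gene (GRCm38). Ttll5 and Ttll7, whose promoter peaks were faint and found in the replicates alone, are not printed. They are shown so that the matches described further on can be read in place, and because the Ttll11 site lies within an intron rather than at a start. The first 4 come from combined promoter peaks, the next 2 from promoter peaks found in the replicates alone, and the last from a combined peak within Ttll11. Stretches near transcribed sequence were kept short.
Ttll9, chr2:152962466-152962495, plus strand: ctcctttgGTTGCCGTAGCAACgagacgca
Ttll10, chr4:156050788-156050866, minus strand: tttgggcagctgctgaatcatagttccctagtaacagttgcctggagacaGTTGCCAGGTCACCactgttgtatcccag
Ttll1, chr15:83510948-83511061, minus strand: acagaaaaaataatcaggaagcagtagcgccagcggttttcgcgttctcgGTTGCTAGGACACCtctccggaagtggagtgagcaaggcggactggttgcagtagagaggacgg
Ttll3, chr6:113392340-113392453, plus strand: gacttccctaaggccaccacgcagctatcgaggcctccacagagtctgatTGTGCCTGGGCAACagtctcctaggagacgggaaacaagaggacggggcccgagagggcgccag
Ttll4, chr1:74661784-74661813, plus strand: ggagcttgGTTGCTAGGGACACctgaggtc
Ttll13, chr7:80246375-80246404, plus strand: cggccttcGTGTCCATAGCGACggcggcgg
Ttll11 (intron), chr2:35809252-35809365, minus strand: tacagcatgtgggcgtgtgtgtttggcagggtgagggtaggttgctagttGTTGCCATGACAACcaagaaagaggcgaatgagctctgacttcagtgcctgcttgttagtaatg

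In each replicate list, though not in the shorter combined list, RFX2 peaks were found at the promoters of most of the 10 TTLL genes. In replicate 1, 8 of the 10 genes had a promoter peak, against 14% of all protein-coding genes. In replicate 2, 7 of 10 had one, against 11.3%, and the same 7 were bound in both replicates (Ttll1, Ttll3, Ttll4, Ttll7, Ttll9, Ttll10 and Ttll13), against 9.05%. The combined list held 4 of the 10 (Ttll1, Ttll3, Ttll9 and Ttll10), against 5.26% of all genes. The members' shares lay above these backgrounds in each list, but no test was made, because earlier results were known when the genes were chosen.

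TTLL genes also have more annotated starts than most genes, with a median of 7.5 (range 2 to 18) against 3, and each start adds a window in which a peak can fall. Among the 4505 protein-coding genes with 7 or more starts, 15.7% were bound in both replicates and 8.75% in the combined list. The members' 70% and 40% are not matched to these shares, since Ttll1, Ttll6, Ttll7 and Ttll13 have 4, 2, 4 and 5 starts. Whether the number of starts accounts for the members' shares was not tested. In the 7 genes bound in both replicates the peaks of the replicates overlapped each other, by 146 bp at Ttll7 up to 724 bp at Ttll9. No member's peak met the promoter of another gene.

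**Figure D1:**
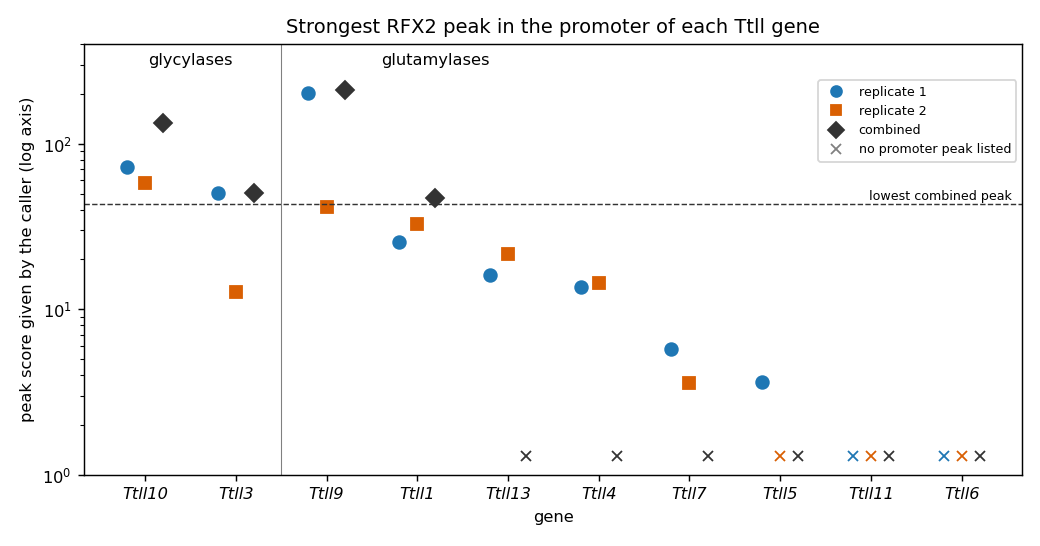
Score of the strongest promoter peak of each gene (y axis, log scale) in replicate 1 (circles), replicate 2 (squares) and the combined list (diamonds), with glycylases left of the vertical line and crosses for genes without a promoter peak in a list. Ttll9 and Ttll10 hold the highest values, 211 and 133 in the combined list, and Ttll6 and Ttll11 have crosses in all 3 lists.

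Among the glutamylases, the strongest peak lay at Ttll9, which lengthens glutamate chains and is known for its part in sperm motility. Its peak scored 204 in replicate 1 (rank 117 of 39825), 41.7 in replicate 2 (rank 685 of 21274) and 211 in the combined list (rank 212 of 2726). The combined peak (chr2:152962043-152963029) was enriched 27.7-fold over local background, with its summit 8 bp upstream of the nearest TSS, in an exon of the gene. It stood above 86.7% of the combined peaks at coding promoters, whose median score was 103. The score in replicate 1 was well above that in replicate 2, and the gene stood in the top 0.294% and 3.22% of the respective lists.

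Ttll1, the catalytic subunit of a multi-protein glutamylase needed for sperm flagella, carried a weaker peak. It scored 25.4 in replicate 1 (top 9.05% of the list), 32.8 in replicate 2 (top 4.47%) and 47.1 in the combined list (rank 2529). Fold enrichment was 8.60, below the median of 15.0 for combined promoter peaks. The peak (chr15:83510682-83511268) covered the first start, with its summit 126 bp upstream of it, and 3.89% of combined promoter peaks scored lower. In contrast to Ttll9, Ttll1 ranked higher in replicate 2 than in replicate 1.

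Ttll13, which lengthens chains on alpha-tubulin, and Ttll4, which starts them, were bound in both replicates without entering the combined list. At Ttll13 the peak scored 16.0 in replicate 1 and 21.4 in replicate 2, and the replicate 1 peak (chr7:80245916-80246701) had its centre 68 bp upstream of the first start. At Ttll4 the scores were 13.6 and 14.5, and the replicate 1 peak (chr1:74661722-74661951) was centred 19 bp downstream of a start that lies 72 bp inside the gene. Both genes scored higher in replicate 2 than Ttll3, which is in the combined list, and lower than Ttll3 in replicate 1.

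Ttll7, a glutamylase that prefers beta-tubulin, held faint peaks upstream of its first start. The score was 5.76 in replicate 1 (rank 17977) and 3.58 in replicate 2 (rank 19169, in the top 90.1% of the list, so near its lower end). Their centres lay 235 and 314 bp upstream. Both scores were lower than the median promoter peak, 12.6 in replicate 1 and 10.3 in replicate 2.

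Ttll5, a chain initiator known for its role in sperm, had promoter peaks in replicate 1 alone. They scored 3.64 and 3.37, and both lay in introns at internal starts, 87901 and 137342 bp downstream of the first start. In replicate 2 the nearest peak was 1230 bp from a start and scored 3.56. No peak of either replicate fell in the promoter of the first Ttll5 start, and with 18 starts this gene offered the largest number of windows among the members.

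Ttll6 and Ttll11, which lengthen chains on tubulin tails, had no promoter peak in any list. The peaks nearest to Ttll6 lay 9384 bp upstream in replicate 1 (score 9.22) and 9800 bp upstream in replicate 2 (score 4.72), and these overlapped by 7 bp. At Ttll11 the nearest peaks lay 4018 bp upstream in replicate 1 (score 3.58) and 3734 bp downstream in replicate 2 (score 5.04), so they were separate places. Absence from a list means that no peak passed the steps that made it. The study's methods describe a default and a relaxed calling per replicate and a selection of peaks by their reproducibility between replicates, and which of these each list reflects is not stated. With unknown depth, how weak a signal could have been detected is not known.

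Ttll11 nonetheless contained a strong peak away from its starts. A combined peak in an intron (chr2:35808779-35809600) scored 85.1 (rank 1296), with a fold enrichment of 22.8, and was met by peaks of both replicates that scored 63.0 and 28.7. From the nearest Ttll11 start to the summit, the distance was 72655 bp in the direction of transcription. It was the only combined peak found within a member gene outside the promoters, and its score exceeded those of the promoter peaks of Ttll1 and Ttll3. Its target gene, if any, was not tested.

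Both glycylases were bound in every list. Ttll10, which lengthens glycine chains, scored 72.1 in replicate 1 (rank 1131), 58.2 in replicate 2 (rank 403) and 133 in the combined list (rank 635), with a fold enrichment of 27.1. The combined peak (chr4:156050405-156051005) had its summit 4 bp downstream of a start. Ttll10 was the best ranked member in replicate 2, and the second after Ttll9 in replicate 1 and the combined list.

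Ttll3, which attaches the first glycine, scored 50.05 in replicate 1 (rank 1809), 12.6 in replicate 2 (rank 2893) and 50.1 in the combined list (rank 2378). The combined peak (chr6:113392126-113392722) was enriched 6.54-fold, with its summit 62 bp upstream of a start. Replicate 2 gave this peak a much lower place, the top 13.6% of its list against 4.54% in replicate 1. Weak extra peaks fell in the same promoters, at Ttll3 in replicate 1 (score 4.96) and at Ttll10 in replicate 2 (score 4.99).

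Both glycylases were bound away from their first annotated start. At Ttll3 the peak lay at a coding start (113392458) 3198 bp downstream of the first annotated start, and at Ttll10 at a coding start (156050817) 8597 bp downstream of the first. At the 5 glutamylases bound in both replicates (Ttll1, Ttll4, Ttll7, Ttll9 and Ttll13), the start nearest to the peak was the first one or lay within 72 bp of it. Beyond the members bound in both replicates, this pattern had exceptions. The promoter peaks of the glutamylase Ttll5 lay only at internal starts, but they were faint (scores 3.64 and 3.37) and found in replicate 1 alone. Ttll8, a chain-initiating glycylase outside the 10 members, was bound at its first start in both replicates. The transcript annotated at that start is not classed as protein-coding. With the promoter limited to the first start of a protein-coding transcript, the glycylases fell from 2 of 2 to 0 of 2 in the combined list, whereas the glutamylases kept 2 of 8. Of all protein-coding genes, 4.47% were bound under that limit. Among all 1153 genes bound in the combined list, 15.0% were bound only at another start. RefSeq gives 156050817 as the start of Ttll10, the bound one, and lists both starts for Ttll3, at 113389260 and 113392463. The first Ttll3 start falls inside the annotated span of Arpc4, a gene on the same strand that encodes a subunit of the actin-nucleating Arp2/3 complex.

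**Figure D2:**
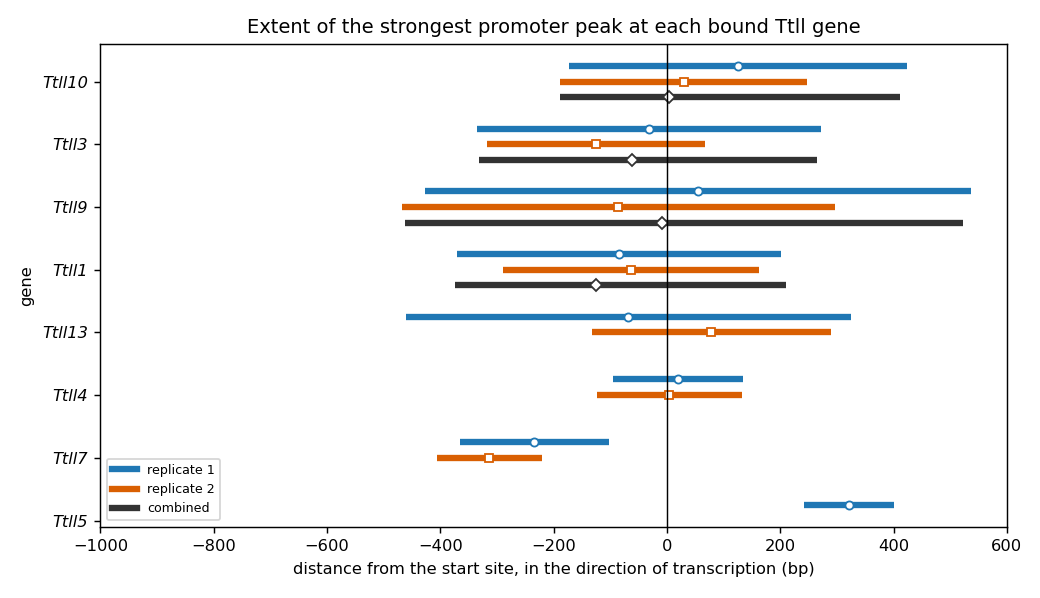
Extent of the strongest promoter peak (bars) of the 8 bound genes in replicate 1, replicate 2 and the combined list, with upstream to the left and the summit or centre as an open symbol. Positions are in bp from 1 start per gene, the nearest to the combined peak or, without such a peak, to the replicate 1 peak. The peaks of Ttll10, Ttll3, Ttll9, Ttll1, Ttll13 and Ttll4 cover the start, those of Ttll7 end at least 103 bp before it, and the replicate 1 peak of Ttll5 begins 242 bp after it.

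In the combined list, then, 2 of 2 glycylases and 2 of 8 glutamylases were bound, against 5.26% of all protein-coding genes. In both replicates 2 of 2 and 5 of 8 were bound, against 9.05%. With 2 glycylases, these counts are a description and the difference between the classes was not tested. The scores of the classes overlapped, since Ttll9 exceeded both glycylases in the combined list and Ttll1 lay below both. Glycylases had a median of 8.5 annotated starts and glutamylases 6. When only the better ranked 50% of the combined list was kept, Ttll9 and Ttll10 remained, 1 gene of each class, against 3.42% of all genes.

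Distances to the nearest peak set the members without a promoter peak apart from each other. The median distance from a member's start to the nearest combined summit was 50.7 kb, against 205 kb over the 21755 protein-coding genes on chromosomes with such a peak. Each gene was measured from whichever of its starts lay closest, and members have more starts, a median of 7.5 against 3. The members' median fell in a gap. Those with a combined promoter peak lay within 126 bp, the others at 42.2 kb or more. The interval given further on for the members' median, 0.008 to 221 kb, included the 205 kb of all genes. The median was 0.033 kb for glycylases and 72.6 kb for glutamylases, of which 6 lacked a combined promoter peak. For those 6 the nearest combined summit lay 42.2 kb (Ttll11), 59.2 kb (Ttll13), 86.0 kb (Ttll7), 111 kb (Ttll4), 221 kb (Ttll5) and 263 kb (Ttll6) away. The peak nearest to Ttll13 was at the promoter of another gene, Sema4b, 297 bp from its start, and ranked 7 in the list. In the replicates, the median distance of the members was 0.081 kb in replicate 1 and 0.095 kb in replicate 2, against 17.0 and 28.5 kb for all genes.

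**Figure D3:**
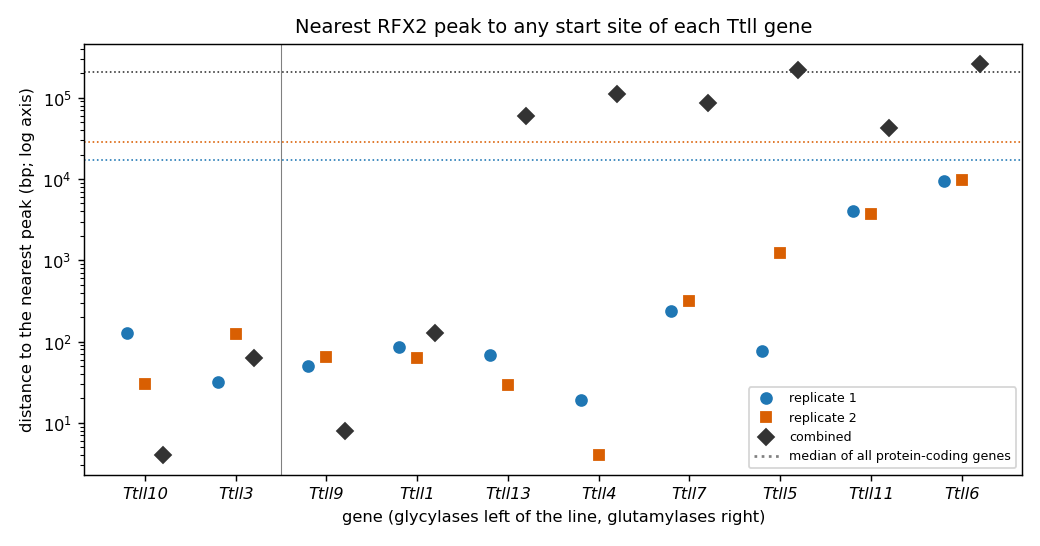
Distance in bp (log scale) from any start of each gene to the nearest peak centre (replicates) or summit (combined list), with dotted lines at the medians of all protein-coding genes. For Ttll13, Ttll4, Ttll7 and Ttll5 the combined symbols sit far above those of the replicates, and for Ttll10, Ttll3, Ttll9 and Ttll1 all symbols lie at or below 126 bp.

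The best match to the X-box palindrome varied among the bound promoters. Substitutions are given as the palindrome's base, its position counted from 1 at the 5′ end, and the base of the site on the strand of the gene. Ttll9 had 2 mismatches (A7G and G9A), with the match centred 18 bp upstream of the summit. Ttll10 had 3 (T8G, G10T and A13C), all within the last 7 bases, so that the first 7 bases matched fully. A perfect run of 7 bases on one side of the best match was found in 32.2% of combined promoter peaks and in 52.1% of all combined peaks. In windows placed 1000 bp to the right of the summits of all combined peaks, the share was 1.14%.

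Ttll1 (C6T, T8G, G10A and A13C) and Ttll3 (G1T, T2G, A7T and T8G) each had 4 mismatches. The Ttll3 match, at the summit itself, was the more altered on the side opposite to that of Ttll10, with 3 mismatches in its first 7 bases and 1 in its last 7. At most 3 mismatches were therefore met at 2 of the 4 combined member promoter peaks, against 58.9% of the 1003 combined peaks at coding promoters, 75.5% of all combined peaks and 0.990% of the windows to the right. At most 4 were met at 4 of 4, against 78.1% of combined promoter peaks and 6.90% of the windows to the right. The members' counts lay near the background of promoter peaks at both limits.

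The other bound promoters had 4 mismatches at Ttll4, Ttll13, Ttll7 and Ttll5, in windows around the centre of the strongest replicate 1 peak. A match of at most 3 was found in 22.3% of all replicate 1 peaks, and the share with at most 4 was not counted. Around the Ttll7 peak centre in replicate 2 the best match was a different site, with 5 mismatches. Ttll1 and Ttll4 shared the 9-base word GTTGCTAGG at the start of their matches, and the Ttll1 and Ttll10 sites were identical at 12 of 14 positions. The closest match of all was in the Ttll11 intron, with a single mismatch (G10A) 39 bp from the summit. In RefSeq promoters, which reach from 250 bp upstream to 50 bp downstream of a start, a match with at most 3 mismatches on either strand was present in 3.37% of all 32851 promoters and in those of Ttll9 and Ttll10 among the 9 member promoters (8 genes) in that table. A match describes letters alone and does not show that RFX2 contacted them.

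**Figure D4:**
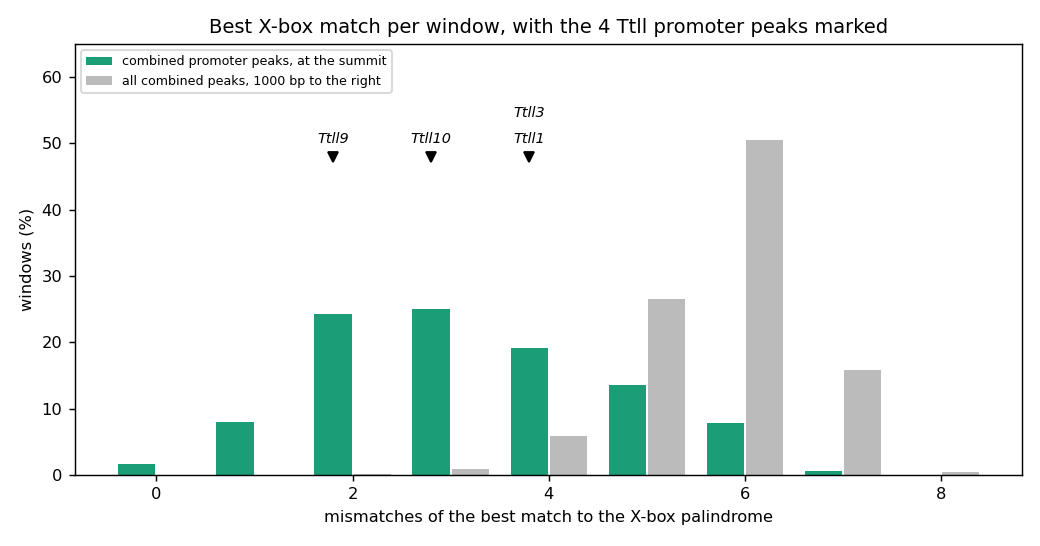
Share of windows of 100 bp to each side of a point (y axis, %) by the number of mismatches of their best match to the palindrome (x axis), for combined promoter peaks at the summit (green) and for all combined peaks 1000 bp to the right (grey), with triangles for the 4 member peaks. Ttll9 sits at 2, Ttll10 at 3 and Ttll1 and Ttll3 at 4 mismatches, all within the range of the green bars.

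The combined list held 4 of the 5 genes for partners of TTLL1 in its complex, namely Tpgs1 (score 163), which targets the complex, Lrrc49 (322, rank 31), Nicn1 (143) and Cstpp1 (300, rank 47, annotated as 1110051M20Rik). Over all protein-coding genes the share was 5.26%. In the combined list each of these scores was at least 3 times that of Ttll1 itself, 47.1. The replicates did not share this order throughout, since in replicate 2 Nicn1 scored 22.1 and Tpgs1 73.8, against 32.8 for Ttll1, and in replicate 1 they scored 132 and 104, against 25.4. Tpgs2 had a peak in replicate 1 alone (score 5.47), in a promoter region that also belongs to AW554918. The Lrrc49 peak likewise met the promoter of B930082K07Rik and cannot be assigned to either gene.

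Deglutamylases, carboxypeptidases that remove glutamate from tubulin, were bound at 3 of 6 genes in every list, against 14% of all protein-coding genes in replicate 1, 11.3% in replicate 2 and 5.26% in the combined list. Agbl3 scored 205 in the combined list (rank 245), Agbl4 127 (rank 678) and Agbl2 49.7 (rank 2389). In replicates 1 and 2 the scores were 139 and 119 for Agbl3, 82.6 and 61.8 for Agbl4, and 30.8 and 15.1 for Agbl2. Agtpbp1, Agbl1 and Agbl5 had no promoter peak. Near the summits, the best match had 1 mismatch at Agbl3 and Cstpp1, 2 at Agbl4 and Lrrc49, 4 at Agbl2, 5 at Tpgs1 and 6 at Nicn1.

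Of the rest of the family, Ttl, the tyrosine ligase itself, Ttll2 and Ttll12 had no promoter peak. Ttll8, the other chain-initiating glycylase, was bound in both replicates (scores 33.8 and 16.0), 1 of 4 genes against 9.05% of all genes, and was absent from the combined list. Counting it as a glycylase gives 3 of 3 in the replicates and 2 of 3 in the combined list. Counting Ttll2 as a glutamylase gives 2 of 9 in the combined list, where the share of all genes was 5.26%.

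**Figure D5:**
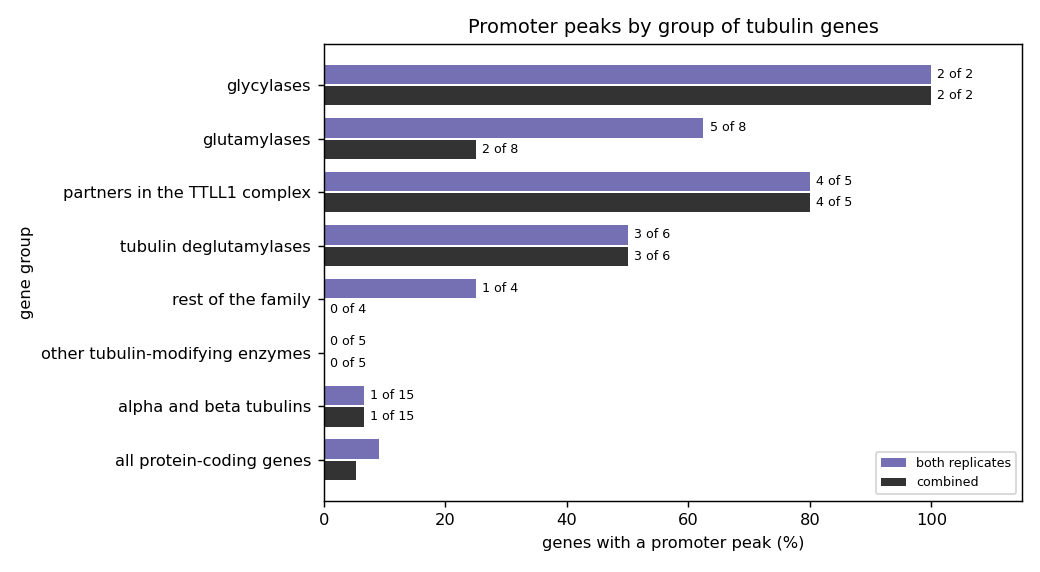
Share of genes with a promoter peak in both replicates and in the combined list (x axis, %) by group, with the counts printed beside the bars and all protein-coding genes at the bottom. Glycylases and partners in the TTLL1 complex reach the highest shares in the combined list, and alpha and beta tubulins lie near the background.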

How the data were processed

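RFX2 ChIP-seq peak lists of 2 wild type testis samples were used, with inputs entering only through the authors' calling. Per the study's methods and the submitters' processing notes, the authors processed reads with CASAVA 1.8.2, mapped them to GRCm38 (Ensembl release 70) with Bowtie 0.12.7, discarded reads with several locations, removed human reads from the second run of replicate 2, and called peaks with MACS2 2.0.10.20130520. The methods describe a default calling and one at a relaxed p threshold for each replicate, then a selection of reproducible peaks by the irreproducible discovery rate (IDR). Which calling was deposited, and whether the combined list passed the IDR step, is not stated. Deposited replicate lists hold 1 value per peak on a −log10 scale, and whether it is a p- or q-value is not stated. The authors' combined list holds a score (10 times −log10 p), the fold enrichment as a ratio, −log10 p, −log10 q and the summit. The archive attaches it to replicate 2, but its peak names begin with "all", so it was taken to be called on the reads of both replicates together. Removal of human reads can lower peaks in conserved sequence in replicate 2.

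Promoters came from GENCODE mouse release 21 (GRCm38) and sequences from GRCm38.p6 and RefSeq, so starts may differ from those the authors used. Scores given for combined peaks are −log10 p. A match to the palindrome was searched on both strands. Ranks count ties at the best place. Python 3.11.15, pandas 2.3.3 and pysam 0.24.0 were used, and the overlap counting was tested on simulated data. Named genes were all members, the fixed lists of partners, deglutamylases, family, other modifiers and tubulins, and genes nearest to or sharing a described peak. Members and lists were chosen with earlier results of these data known. The limit of 7 starts, the counts of matching 7-base runs, the site comparisons and Arpc4 were added after values were seen. The sources used here do not say whether the replicates came from separate mice.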

Additional observations from a re-analysis of the deposited data

How the results depend on the processing

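Of 39 recomputed values, 28 stayed within 1.5 times the reported count or within the spread, 11 moved and 0 reversed. Counts and distances have no direction, so a reversal could not occur. Adding Ttll2 or Ttll8, which have no combined promoter peak, could not change a combined count. With the first coding start alone, bound members fell from 8 to 5 in replicate 1, while the share of all genes fell from 14% to 9.68%. In the combined list, members fell from 4 to 2 (Ttll1 and Ttll9) and all genes from 5.26% to 4.47%. Bound glycylases there fell from 2 to 0, since the Ttll3 and Ttll10 peaks lie at later starts. With as many top peaks as the combined list, replicate 1 kept 3 members and both replicates 2 (Ttll9 and Ttll10), against 5.02% and 4.57% of all genes. With the better ranked 50% of the combined list, 2 members remained, 1 glutamylase (Ttll9) and 1 glycylase (Ttll10), against 3.42% of all genes. The median distance was then 187 kb, within the order-statistic interval, of at least 95% coverage, of the reported median over 10 genes (0.008 to 221 kb). That interval is too wide to tell the distance settings apart. X-box matches at the 4 combined member promoter peaks were 1 with at most 2 mismatches, 4 with at most 4, and 1 around the peak centre. A narrower promoter (500 bp upstream to 50 bp downstream) and the rule that the peak centre lie in the promoter left the counts of members and classes unchanged. Under these settings 4.98% and 5.01% of all genes were bound in the combined list. Without replicate 1 or replicate 2, the count for both replicates was 7 or 8. No paired analysis was possible because the results come from no test and each sample has its own list. Unknown depth limits what the absence of a peak shows.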

Other observations

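Among the alpha and beta tubulins, the substrates of these enzymes, 1 of 15 genes was bound in the combined list, against 5.26% of all protein-coding genes. It was Tubb4b, a beta-tubulin abundant in cilia, with a score of 44.4 (rank 2645 of 2726), 37.7 in replicate 1 and 7.43 in replicate 2, and the best match to the palindrome near its summit had 5 mismatches. Tuba1a had a peak in replicate 1 alone (score 2.96). Of the other tubulin-modifying enzymes (Atat1, Hdac6, Vash1, Vash2 and Svbp), Vash2, which removes the C-terminal tyrosine of alpha-tubulin, had a peak in replicate 1 alone (score 13.6), and 0 of 5 were in the combined list.

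Peaks inside TTLL genes but outside their promoters were mostly weak. In replicate 1, 7 were found in Ttll11, 5 in Ttll5, 3 in Ttll7 and 1 in Ttll9, and in replicate 2, 5 in Ttll11, 3 in Ttll5, 3 in Ttll7 and 1 in Ttll4. The lengths of Ttll5 and Ttll11 were 237 and 229 kb, the largest among the members. None of the 8 such peaks in Ttll5 was met by the other replicate. Besides the strong intron peak of Ttll11, another replicate 1 peak within that gene (score 5.15) was met by a replicate 2 peak (4.14). In a Ttll7 intron a replicate 1 peak (score 8.28) was met by 2 replicate 2 peaks (5.36 and 4.39). Searched over the whole peak, the best match had 3 mismatches (T3A, G4A and C6T) in the Ttll7 replicate 1 peak and in the replicate 2 peak scoring 5.36. In the replicate 2 peak scoring 4.39 it had 6.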
